A study of Mus musculus with 2 samples.

Results

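The 35 genes described here are made when a cell copies its DNA and divides, and they were taken from the 31053 genes counted in single kidney cells of 2 mice. The list was set by name: 13 genes of DNA replication, 19 genes of mitosis, and 3 genes (Ccnd1, Hmgb2 and Stmn1) that cells outside the cycle are known to make as well and that were kept out of both sums. All 35 were found in both count tables. The mice were 5 weeks old, 1 labelled WT, called wild type here, and 1 labelled KO and named Kif3aΔTub, with a single library each. Kif3a encodes a motor subunit of kinesin-2, which carries cargo along the primary cilium. The name points to a deletion in the tubule, but the promoter that drives it and the deleted exons are not given in the sources used here. Per the labels, kidneys were dissociated with a protease that works in the cold, red cells were lysed, dead cells were removed and the cells were captured with droplet 3′ chemistry.

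Entry into the cell cycle is driven by cyclin D and then cyclin E kinases, which release E2F factors, and these switch on the genes of the replication machinery. The MCM helicase is loaded on origins by Cdt1 and others before DNA synthesis, and ribonucleotide reductase and thymidylate synthase then supply the nucleotides. Later, the DREAM and MuvB complexes with B-Myb and FoxM1 turn on the genes that condense chromosomes, build the spindle and separate the chromatids. Tubule epithelium of the healthy kidney divides rarely in the adult, still divides as the young kidney grows, and re-enters the cycle after injury.

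The promoters of the 2 gene groups differ in their letters, and 6 are shown because their genes carry the results below. RefSeq windows from 250 bases before to 50 after a gene's start (GRCm38.p6) were found for 28 of the 35 members. Each stretch of 120 bases is printed 5′ to 3′ on the gene's strand, with 3 motifs in capitals in either orientation: the cell cycle homology region TTTGAA (or TTCAAA), the CCAAT box (or ATTGG) and the E2F site TTTNNCGC (or its reverse complement). In Mcm6 the run of capitals near the start holds overlapping E2F matches on both strands. The stretches lie at chr1:128359706-128359825 (minus strand, Mcm6), chr10:69352913-69353032 (minus, Cdk1), chr11:99024190-99024309 (minus, Top2a), chr2:164769809-164769928 (plus, Ube2c), chr4:118437344-118437463 (minus, Cdc20) and chr7:135716380-135716499 (minus, Mki67).
Mcm6: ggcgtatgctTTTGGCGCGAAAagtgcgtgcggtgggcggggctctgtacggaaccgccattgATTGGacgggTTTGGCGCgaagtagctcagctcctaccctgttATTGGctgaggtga
Cdk1: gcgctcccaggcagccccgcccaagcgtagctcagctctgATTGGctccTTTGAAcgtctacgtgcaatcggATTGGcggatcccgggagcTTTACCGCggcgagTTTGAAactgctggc
Top2a: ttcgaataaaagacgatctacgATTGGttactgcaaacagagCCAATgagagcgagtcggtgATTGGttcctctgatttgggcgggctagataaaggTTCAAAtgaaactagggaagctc
Ube2c: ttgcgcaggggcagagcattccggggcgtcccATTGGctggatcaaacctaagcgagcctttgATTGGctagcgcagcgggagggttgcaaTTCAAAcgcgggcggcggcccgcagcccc
Cdc20: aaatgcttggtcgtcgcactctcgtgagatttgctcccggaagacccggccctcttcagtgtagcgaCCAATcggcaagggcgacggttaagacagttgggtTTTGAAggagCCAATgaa
Mki67: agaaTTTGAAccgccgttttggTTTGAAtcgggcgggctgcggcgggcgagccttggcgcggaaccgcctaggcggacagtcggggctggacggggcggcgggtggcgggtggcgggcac

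Counted over the whole windows, TTTGAA was present in 11 of 16 mitosis genes (68.8%), in 1 of 11 replication genes (9.09%, Mcm2) and in 17.9% of all 32851 windows. The E2F letters were present in 6 of 11 replication genes (54.5%: Mcm3, Mcm5, Mcm6, Mcm7, Tyms and Cdt1), in 1 of 16 mitosis genes (6.25%, Cdk1) and in 5.17% of all windows. A CCAAT box was common to both groups, in 14 of 16 mitosis genes (87.5%) and 8 of 11 replication genes (72.7%), against 37.4% of all windows. Both TTTGAA and CCAAT stood in 11 of 16 mitosis promoters and in 6.95% of all windows, and TATAAA stood in no member's window but in 13.6% of all. Cdk1 was the one mitosis gene among those with a window that carried E2F letters too. These are matches of letters and describe the windows; no binding was measured.

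The cells used had 500 or more UMIs (unique molecules), 200 or more genes and a mitochondrial share below 50%: 4317 from wild type and 7066 from Kif3aΔTub, with 42468384 and 79060496 UMIs and similar medians of 7771 and 7799 UMIs per cell. Median mitochondrial shares were 26.8% and 7.54%, and 17 barcodes of kept cells occurred in both libraries. Over all cells Kif3a itself was not lower in the library labelled Kif3aΔTub, at 10.3 UMIs per 1000000 UMIs of the same cells (CPM; 95% interval 9.37 to 11.3) in wild type and 12.2 (11.5 to 13). Its direction differed by class, with 8.58 and 15.8 CPM in proximal tubule-like but 22.9 (14.8 to 33.8) and 10.7 (9.14 to 12.5) in principal-like and 15.4 and 10.2 in intercalated-like cells. Counts of 3′ ends cannot check a deletion elsewhere in the gene, so directions below rest on the label. With 1 library per genotype no difference has a replicate check and no p-value is given. All intervals are exact 95% intervals and cover counting error only; where 0 cells or UMIs were found, the limit given is 3 counts of the total. Cells were clustered without the members and 104 other cell cycle genes, and clusters were named "X-like" from markers.

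Both groups of genes stood higher in the Kif3aΔTub library, in which most genes of any kind were higher too. Over all cells the median log2 ratio (Kif3aΔTub over wild type) was 0.62 for all genes and 0.89 for the members. Of the 35 members, 24 lay above 0.62. The others were Ccnd1, Stmn1, Tyms, Ccnb1, Ccnb2, Cdc20, Mki67, Birc5, Cenpf, Cenpe and Nusap1. The replication genes summed to 96.4 CPM (93.5 to 99.4; 4095 UMIs) in wild type and 197 CPM (193 to 199.7; 15539 UMIs) in Kif3aΔTub. The mitosis genes summed to 111 CPM (108 to 115; 4732 UMIs) and 205 CPM (202 to 208; 16194 UMIs). With mitochondrial transcripts taken out of the totals the sums were 135 and 219 CPM for replication and 156 and 228 CPM for mitosis, so the direction was the same and the distance smaller. A few cells held much of the mitosis signal: the 10 highest cells carried 43.9% of mitosis UMIs in wild type and 17.2% in Kif3aΔTub, but 9.89% and 4.93% of replication UMIs.

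The G1 cyclins came first in the order of the cycle. Ccnd1, cyclin D1, which starts the G1 phase and is made widely by epithelium, was at 339.5 CPM in wild type and 355 CPM in Kif3aΔTub, a log2 ratio of 0.06 (0.04 to 0.09). Its near equality over all cells went with unlike differences in single classes, given below. The cyclin E genes, whose kinase triggers origin firing, were among the scarcest members. Ccne1 was at 0.730 and 2.93 CPM (log2 ratio 1.99, 1.46 to 2.60) and Ccne2 at 1.46 and 2.95 CPM (1.00, 0.60 to 1.44).

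All 6 subunits of the MCM helicase were higher in Kif3aΔTub cells, and the log2 ratios ran from 0.96 to 1.87. Mcm3 (3.81 and 14.0 CPM, log2 ratio 1.87, 1.63 to 2.12) and Mcm4 (4.50 and 15.0 CPM, 1.74, 1.52 to 1.97) were the farthest apart. Mcm5 was at 3.11 and 8.10 CPM (1.38, 1.11 to 1.66), Mcm6 at 9.77 and 22.8 CPM (1.22, 1.07 to 1.38) and Mcm2 at 7.30 and 16.5 CPM (1.18, 1.00 to 1.36). Mcm7 was the closest, at 11.6 and 22.6 CPM (0.96, 0.82 to 1.11). The counting intervals of Mcm3 and Mcm7 did not overlap. Such intervals treat each UMI as separate and take no account of UMIs that share a cell. Whether the subunits of this one ring differed by unlike factors was not tested. Cdt1, the licensing factor that brings the ring to the origin, was at 3.34 and 6.15 CPM (0.87, 0.61 to 1.16). Pcna, the sliding clamp of the polymerases, was at 11.4 and 19.4 CPM (0.76, 0.62 to 0.92).

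The 3 genes of nucleotide supply had log2 ratios from 0.55 to 1.14. Rrm1, the large subunit of ribonucleotide reductase, was at 8.41 and 18.5 CPM (log2 ratio 1.14, 0.97 to 1.31). Rrm2, its small subunit, whose protein is made in S phase and destroyed at mitosis, was at 6.83 and 12.2 CPM (0.83, 0.64 to 1.03). Tyms, thymidylate synthase, was at 24.2 and 35.5 CPM (0.55, 0.45 to 0.66), with UMIs in 17.4% and 21.8% of cells.

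Among the mitotic cyclins and kinases the 2 libraries differed by unlike amounts. Cdk1, the kinase that drives entry into mitosis, was at 4.45 (3.84 to 5.13) and 15.9 (15.0 to 16.8) CPM, a log2 ratio of 1.83 (1.61 to 2.06), with UMIs in 1.81% and 7.57% of cells. Its partners differed less: Ccna2 was at 3.39 and 5.41 CPM (0.67, 0.40 to 0.96) and Ccnb1 at 3.60 and 5.29 CPM (0.55, 0.28 to 0.83). Ccnb2, the other B-type cyclin, was at 7.30 and 7.80 CPM, and its log2 ratio of 0.10 (−0.10 to 0.30) had an interval that included 0. The counting interval of the kinase lay wholly above those of its 3 cyclins, and a difference between these genes was not tested. Aurkb, the kinase of the chromosomal passenger complex, had the highest ratio of the mitosis genes, at 1.22 and 4.95 CPM (2.00, 1.59 to 2.46). Aurka, which matures the spindle poles, was at 1.95 and 3.64 CPM (0.89, 0.54 to 1.27). The polo kinase Plk1 was at 1.95 and 3.54 CPM (0.85, 0.50 to 1.23) and the checkpoint kinase Bub1 at 1.37 and 2.48 CPM (0.85, 0.43 to 1.31), so these 3 did not differ from one another beyond counting error.

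The 2 members of the anaphase-promoting pathway parted. Ube2c, the ubiquitin-conjugating enzyme that works with this complex, was at 5.84 and 17.4 CPM (log2 ratio 1.58, 1.38 to 1.78). Cdc20, the activator that the spindle checkpoint holds back, was at 6.88 and 7.31 CPM (0.09, −0.12 to 0.30). Both promoters shown above carry TTTGAA letters and CCAAT boxes.

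Genes of chromosome structure, centromere and spindle were all higher in Kif3aΔTub, with log2 ratios from 0.49 to 1.90. Mki67, Birc5, Cenpf, Cenpe and Nusap1 nevertheless lay below the median of all genes (0.62), and the other genes of this group lay above it. Top2a, the topoisomerase that untangles sister chromatids, was at 6.05 (5.33 to 6.84) and 22.7 (21.6 to 23.8) CPM (1.90, 1.72 to 2.10). Mki67, the protein that coats mitotic chromosomes and serves as the usual marker of dividing cells, was at 15.4 and 23.4 CPM (0.61, 0.48 to 0.74). Birc5, the survivin subunit of the passenger complex, was at 13.7 and 20.9 CPM (0.61, 0.47 to 0.75). A reading from Mki67 alone would thus give a smaller distance between the libraries than one from Top2a. Of the centromere genes, the histone variant Cenpa was at 6.15 and 13.1 CPM (1.09, 0.89 to 1.29), Cenpf at 14.6 and 20.5 CPM (0.49, 0.36 to 0.63) and the kinesin Cenpe at 6.03 and 8.50 CPM (0.49, 0.29 to 0.71). Of the spindle genes, the assembly factor Tpx2 was at 3.96 and 9.35 CPM (1.24, 1.00 to 1.49), the kinesin-5 motor Kif11 at 2.35 and 5.03 CPM (1.09, 0.78 to 1.43) and the microtubule bundler Nusap1 at 5.30 and 7.61 CPM (0.52, 0.30 to 0.75). Nusap1 was the exception when cells were counted: it had UMIs in 3.24% of wild type cells and 2.58% of Kif3aΔTub cells.

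Hmgb2, a chromatin protein that is abundant in dividing cells, was at 60.9 and 155 CPM (log2 ratio 1.35, 1.29 to 1.41). Stmn1, which destabilises microtubules, was at 131 and 168 CPM (0.36, 0.31 to 0.40). Over the whole libraries, 33 of the 35 members had an interval above 0, against 67.6% of all 15940 genes with at least 20 UMIs, and Ccnb2 and Cdc20 were the other 2. The interval lay below 0 for 0 members and for 18.7% of all genes. These sums mix cell classes that the libraries held in very different numbers, so the classes were compared next.

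**Figure D1:**
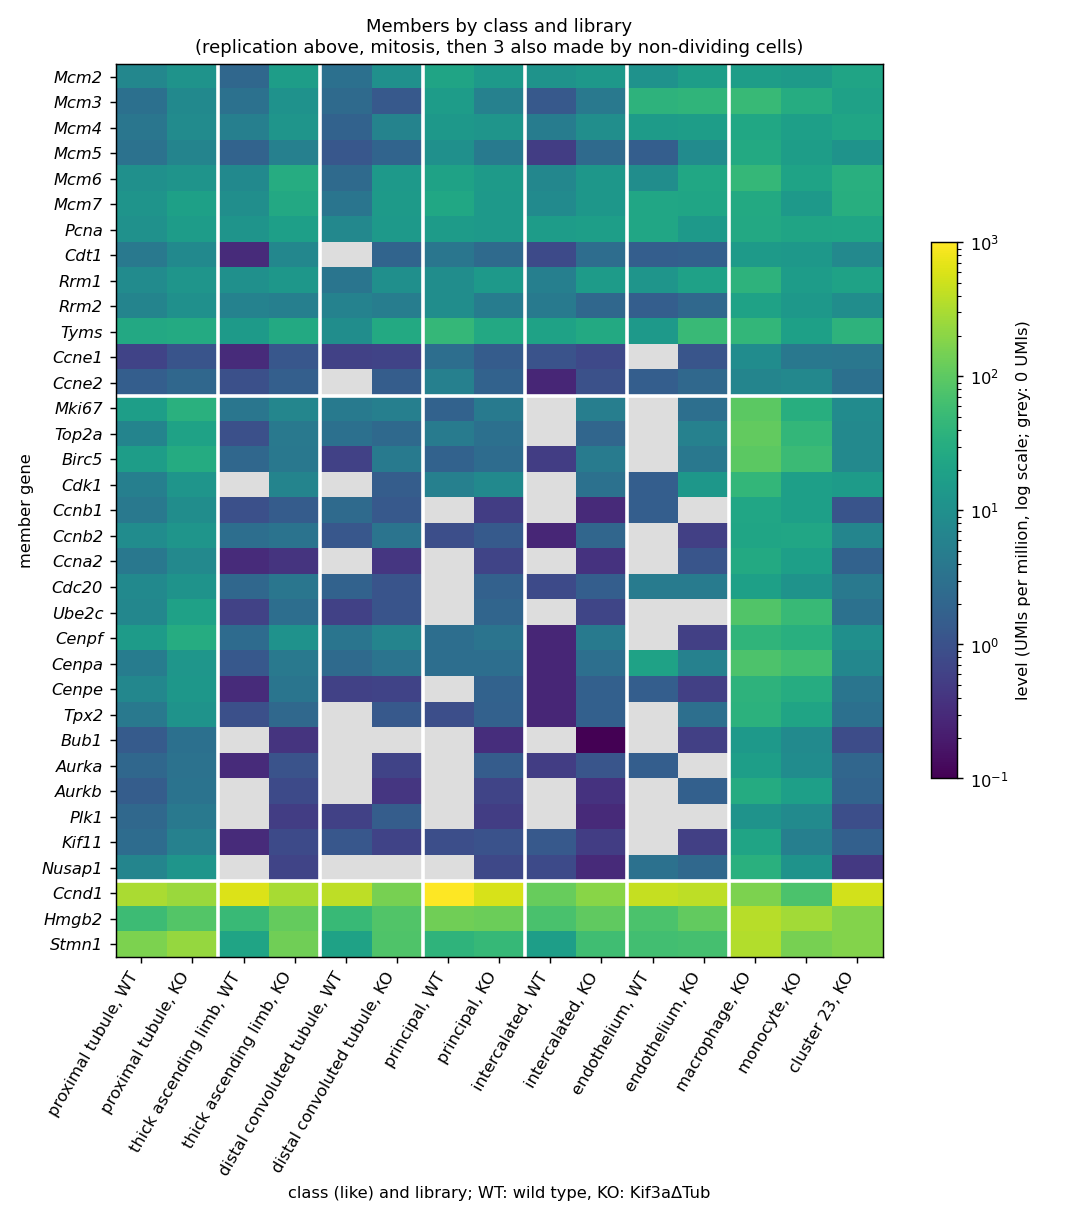
Levels of the 35 members (rows, by role) in both libraries of the 6 compared classes and in 3 classes of Kif3aΔTub (columns), as colour on a log10 scale of CPM. Grey marks 0 UMIs; mitosis genes are brightest in macrophage-like cells (Top2a at 109 CPM), and Ccnd1 is bright in every column and reaches 989 CPM in wild type principal-like cells.

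Proximal tubule-like cells, which reabsorb most of the filtrate, numbered 3023 in wild type and 1080 in Kif3aΔTub. Their replication genes summed to 96.2 and 143 CPM (log2 ratio 0.57, 0.48 to 0.65) and their mitosis genes to 127 and 253 CPM (1.00, 0.93 to 1.07). All 35 members had at least 20 UMIs over both libraries here. The Kif3aΔTub level was at least 2-fold higher in 11 of the 35, against 15.8% of all 12392 genes with as many UMIs, and at least 2-fold lower in 0, against 4.21%. The median log2 ratio was 0.90 for the members and 0.31 for all genes. Over the alternatives run, the log2 ratio of the mitosis sum ranged from 0.39 (clustering with cell cycle genes) to 1.88 (resolution 2). The class then held fewer cells and lower mitosis sums. These were 20.6 and 26.9 CPM with cell cycle genes (2958 and 960 cells) and 39.8 and 146 CPM at resolution 2 (2992 and 441 cells). In the cells that clustering with cell cycle genes left in the class, Cenpf, Cenpe, Aurkb, Kif11, Nusap1 and Rrm2 were lower in Kif3aΔTub. The classes were not made of the same clusters: 929 of the 1080 Kif3aΔTub cells lay in cluster 15, which held 40 wild type cells, and the median mitochondrial share was 27.8% in wild type and 19.5% in Kif3aΔTub.

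Among the members in this class the widest difference was that of Top2a, at 6.42 and 19.9 CPM (1.63, 1.35 to 1.91). Ube2c (7.12 and 19.5 CPM, 1.45), Tpx2 (4.18 and 11.3 CPM, 1.43), Mcm3 (3.01 and 7.94 CPM, 1.40) and Cenpa (4.78 and 12.5 CPM, 1.39) followed. Cdk1 (5.32 and 12.3 CPM, 1.21), Aurkb (1.17), Mcm4 (1.15), Ccnb1 (1.13), Kif11 (1.13) and Bub1 (1.08) made up the 11. Mitosis genes thus supplied 9 of the 11 and replication genes 2. Mki67 (17.6 and 34.3 CPM, 0.96), Nusap1 (0.93), Ccna2 (0.93), Cenpf (0.92), Cenpe (0.90), Plk1 (0.87), Birc5 (0.75), Cdc20 (0.54) and Ccnb2 (8.92 and 12 CPM, 0.42) were higher with intervals above 0 (29 of the 35 members in all, against 52.2% of all genes), and Aurka had an interval that included 0 (0.55, −0.07 to 1.13). Among replication genes, Mcm5 (0.98), Cdt1 (0.90), Mcm2 (0.72), Mcm7 (0.67), Rrm2 (0.67), Pcna (0.66) and Rrm1 (0.53) were higher with intervals above 0. For Mcm6 (0.23, −0.07 to 0.52), Tyms (0.14, −0.05 to 0.32), Ccne1 (0.80, −0.35 to 1.86) and Ccne2 (0.47, −0.28 to 1.17) counting error covered the difference. Ccnd1 was lower, at 314 and 249 CPM (−0.33, −0.39 to −0.27), while Hmgb2 (0.63) and Stmn1 (161 and 237 CPM, 0.56) were higher.

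Thick ascending limb-like cells, which dilute the urine, numbered 340 and 621, and 328 and 22 of them were in cluster 4 while 12 and 599 were in cluster 21. Replication genes summed to 74.4 and 174 CPM (log2 ratio 1.23, 1.03 to 1.43) and mitosis genes to 19.4 and 58.3 CPM (1.58, 1.2 to 2.0). The median mitochondrial share was 34.3% and 7.24%. Of the 25 members with at least 20 UMIs, 16 were at least 2-fold higher in Kif3aΔTub (23.6% of all genes) and 1 at least 2-fold lower (4.69% of all genes). Here and in the classes below, several members reached the minimum through the Kif3aΔTub library, so those counted are not all members and the counts are a description. With cells limited to under 25% mitochondrial UMIs and clustered anew, the class held 68 wild type cells. The ratios turned round to −0.14 for replication and −1.59 for mitosis. Mitosis genes then summed to 390.2 CPM in wild type and 130.1 CPM in Kif3aΔTub, both far above the main values. The cells behind this rise were not examined, and its cause was not tested.

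Helicase and licensing genes were farthest apart among the replication genes of this class. Mcm2 was at 2.19 and 16.7 CPM (log2 ratio 2.84, 1.85 to 4.27) and Mcm6 at 7.81 and 29.8 CPM (1.90, 1.33 to 2.59). Cdt1 had 1 UMI in wild type and 54 in Kif3aΔTub (3.96, 1.99 to 9.86). Of the nucleotide genes, Rrm2 (−0.17, −0.98 to 0.72) and Rrm1 (0.39, −0.19 to 1.02) had intervals across 0 and Tyms was at 15.3 and 26.6 CPM (0.78, 0.34 to 1.28). The other replication genes with enough UMIs lay at 1.75 (Mcm3), 1.48 (Mcm5), 1.45 (Mcm7), 1.19 (Mcm4) and 0.57 (Pcna). Of the mitosis genes, Cdk1 had 0 UMIs in wild type, where 3 UMIs would be the limit, and 47 in Kif3aΔTub, which is at least 6.69-fold higher. Cenpe had 1 and 27 UMIs (2.97), Cenpf was at 2.5 and 10.9 CPM (2.05, 1.08 to 3.39) and Top2a at 0.938 and 4.14 CPM (1.94, 0.46 to 4.50). Ube2c (1.88), Cenpa (1.58) and Tpx2 (1.09) also passed 2-fold, and Mki67 (0.84), Birc5 (0.80), Cdc20 (0.70) and Ccnb2 (0.20) did not and had intervals that included 0. The other 10 members had at most 11 UMIs of any gene but Ccne2 (3 and 12) in either library. Stmn1 was at 21.3 and 138 CPM (2.69, 2.34 to 3.07) and Hmgb2 at 52.2 and 112 CPM (1.10). Ccnd1 went the other way and was the 1 member at least 2-fold lower, at 611 and 304 CPM (−1.01, −1.10 to −0.92).

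In distal convoluted tubule-like cells (219 and 394), the site of fine control of salt and magnesium, replication genes summed to 41.1 and 108 CPM (log2 ratio 1.39, 1.03 to 1.79) and mitosis genes to 22.3 and 36.2 CPM (0.68, 0.17 to 1.25). Of 15 members with at least 20 UMIs, 8 were at least 2-fold higher (22.0% of all genes) and 1 at least 2-fold lower (3.72%). Mcm6 was at 2.42 and 14.2 CPM (2.40, 1.13 to 4.47), Mcm7 at 3.62 and 15.3 CPM (1.97, 0.88 to 3.57) and Tyms at 9.06 and 26.5 CPM (1.51, 0.77 to 2.43). Mcm2 (1.62), Mcm4 (1.59) and Rrm1 (1.32) also passed 2-fold, and the mitosis gene Birc5 had 1 and 21 UMIs. Ccnd1 was again the lower one, at 403 and 151 CPM (−1.41, −1.57 to −1.26), and Stmn1 was at 20.5 and 79.3 CPM (1.93). Mitosis genes were scarce in this class, with 0 UMIs of Bub1 and Nusap1 in either library. The mitosis ratio was 0.27 (−0.23 to 0.84) with mitochondrial transcripts left out of the totals, −0.17 with under 25% mitochondrial UMIs and 2.44 without correlated genes in the clustering. Clusters 3 and 10 held 172 and 47 of the wild type cells, and cluster 10 held 389 of the Kif3aΔTub cells.

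Intercalated-like cells (308 and 740), which secrete acid or base, had the largest log2 ratio of the mitosis sum among the 6 classes, from very few wild type counts: 5.32 and 33.2 CPM (2.61, 2.00 to 3.37). Their replication genes summed to 81.6 and 123 CPM (0.59, 0.41 to 0.77). Of 24 members with at least 20 UMIs, 14 were at least 2-fold higher (16.3% of all genes) and 0 at least 2-fold lower (4.50%). Wild type held 0 UMIs of Mki67, Top2a and Cdk1, against 67, 28 and 41 in Kif3aΔTub, which is at least 6.37-fold, 2.66-fold and 3.9-fold higher. Cenpf had 1 and 57 UMIs (3.45, 1.49 to 9.35) and Birc5 had 2 and 60 (2.79, 1.18 to 6.18). Replication members differed less and not all the same way, with Rrm1 at 5.32 and 15.7 CPM (1.53, 0.90 to 2.30), Mcm3 at 1.33 and 4.17 CPM (1.53, 0.34 to 3.33) and Rrm2 at 4.25 and 2.20 CPM (−0.97, −1.88 to 0.03). Stmn1 had a log2 ratio of 1.76 (1.41 to 2.16). Ccnd1 was at 118 and 197 CPM (0.73, 0.59 to 0.88), but the ratio was −0.01 when cell cycle genes entered the clustering and at resolution 2. In Kif3aΔTub 10 cells held 60.5% of the mitosis UMIs of this class. Cluster 25 held 23 of the wild type and 280 of the Kif3aΔTub cells, with median depths of 23138 and 28027 UMIs.

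Principal-like cells (153 and 1239), which reabsorb water and sodium in the connecting tubule and collecting duct, gave the reverse for replication. Their replication genes summed to 198 CPM in wild type and 131 CPM in Kif3aΔTub (log2 ratio −0.59, −0.79 to −0.38), while mitosis genes summed to 22.0 and 38.7 CPM (0.79, 0.23 to 1.47). Of 28 members with at least 20 UMIs, 4 were at least 2-fold higher (9.30% of all genes) and 5 at least 2-fold lower (6.04%). All 5 of these were replication genes: Ccne2 (5.49 and 1.81 CPM, −1.69, −2.91 to −0.03), Mcm3 (16.5 and 5.70 CPM, −1.56, −2.28 to −0.71), Mcm5 (10.1 and 4.23 CPM, −1.30, −2.19 to −0.18), Ccne1 (2.75 and 1.48 CPM, −1.09, −2.63 to 1.49) and Rrm2 (9.15 and 4.70 CPM, −1.02, −1.93 to 0.16). Ccne1 and Rrm2 passed 2-fold only with the 0.5 UMIs added to each count, and their intervals included 0. Tyms was at 45.8 and 25.8 CPM (−0.84, −1.25 to −0.37) and Mcm7 at 23.8 and 14.4 CPM (−0.75, −1.32 to −0.08). The 4 that passed 2-fold upward (Cdc20, Ube2c, Cenpe and Aurka) had 0 wild type UMIs and 22 to 30 in Kif3aΔTub, which is within the limit that 0 counts allow. The wild type class was small, and 130 of its cells lay in cluster 8 while 830 Kif3aΔTub cells lay in cluster 22. The replication sum was nearly equal at a coarser resolution (−0.02) and after genes correlated with the members were left out of the clustering (−0.07). The mitosis sum was then lower in Kif3aΔTub (−0.87 and −1.09), but the class held other cells. Its mitosis genes summed to 451 and 248 CPM at the coarser resolution and to 311 and 146 CPM without correlated genes. In the latter clustering it took in 3 wild type and 17 Kif3aΔTub cells of cluster 20, a cluster of mitosis-rich cells described below. Among the 6 classes compared, Ccnd1 was highest in this one in both libraries, at 989 and 568 CPM (−0.80, −0.89 to −0.71).

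Endothelium-like cells (155 and 474) had replication genes at 153 and 224 CPM (log2 ratio 0.55, 0.23 to 0.89) and mitosis genes at 33.9 and 46.7 CPM (0.44, −0.23 to 1.21), and at resolution 2 these ratios were 0.32 (−0.17 to 0.85) and −1.0. Of 13 members with at least 20 UMIs, 3 were at least 2-fold higher (4.96% of all genes) and 1 at least 2-fold lower (3.61%). The 3 were Cdk1 (1 and 23 UMIs, 2.53, 0.46 to 8.45), Tyms (13.9 and 51.8 CPM, 1.83, 0.91 to 3.08) and Mcm6 (9.25 and 23.9 CPM, 1.27, 0.13 to 2.90). Cenpa was the lower one, at 20.0 and 5.69 CPM (−1.80, −3.16 to −0.51). Mcm3 was nearly level at 38.5 and 41.6 CPM, and Ube2c and Plk1 had 0 UMIs in either library.

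**Figure D2:**
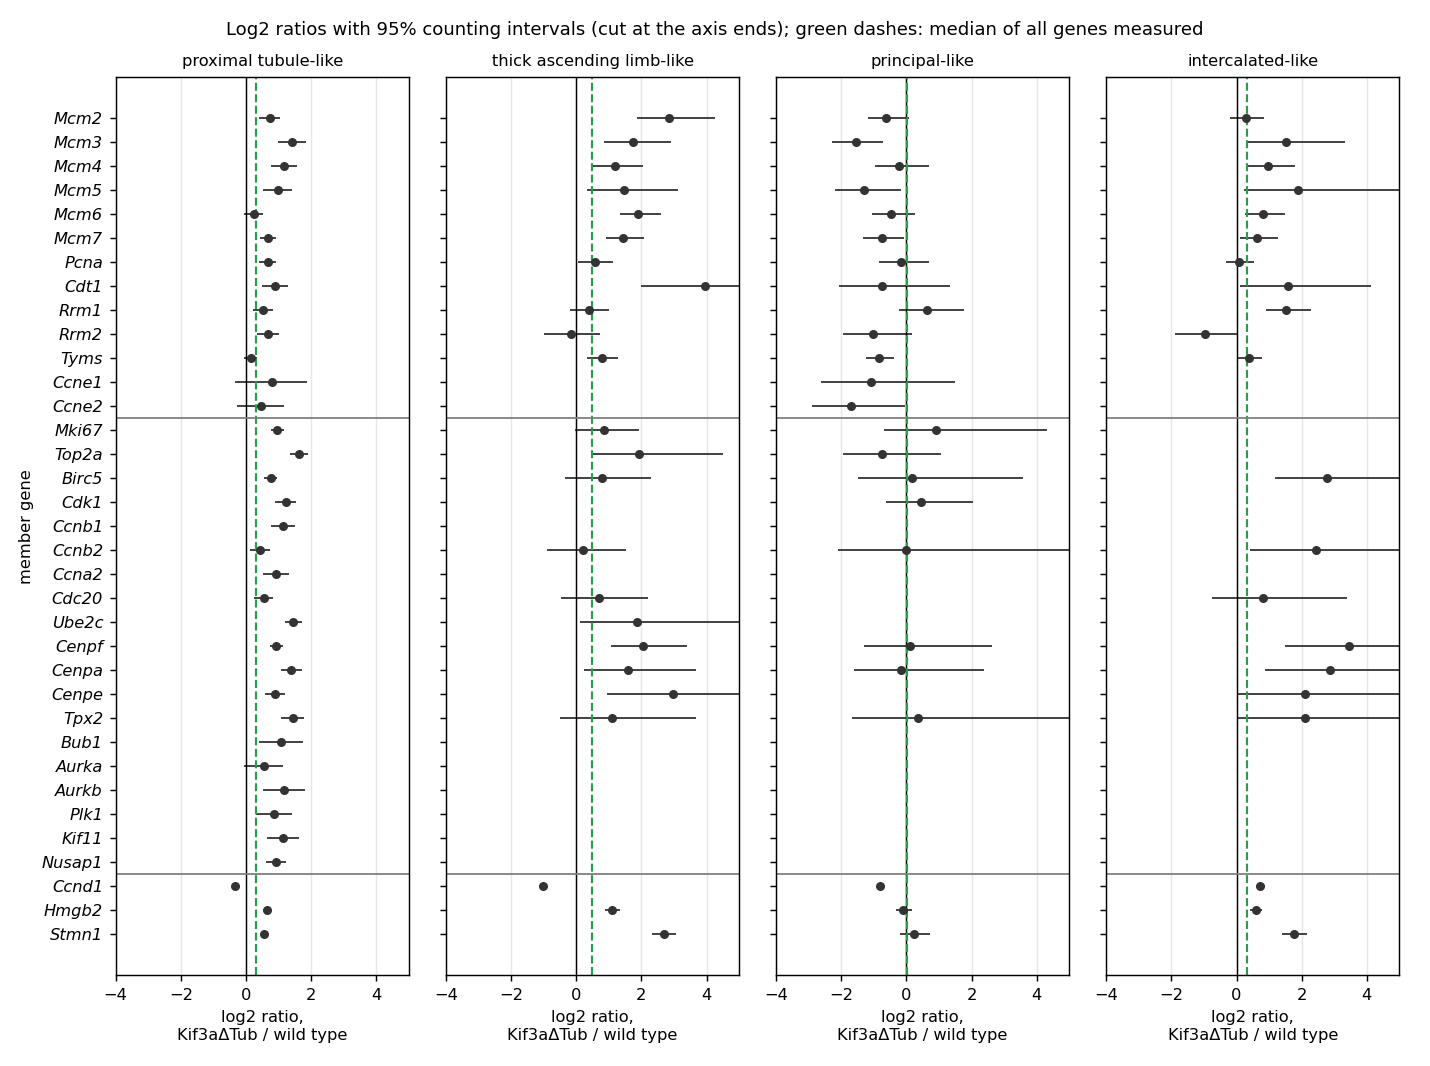
Log2 ratio of Kif3aΔTub over wild type (horizontal axis) with 95% counting intervals for members that have UMIs in both libraries, in 4 classes. In proximal tubule-like cells the 19 mitosis genes lie between 0.42 and 1.63, and in principal-like cells most replication genes lie left of 0.

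The sums were also read against the median log2 ratio of all genes in the same class, because the mitochondrial share moved with genotype. That median was 0.31 for the proximal tubule-like class, 0.48 for the thick ascending limb-like, 0.48 for the distal convoluted tubule-like and 0.32 for the intercalated-like class, and became 0.13, 0.03, 0.07 and 0.04 with mitochondrial transcripts left out of the totals. Relative to it, the replication sums stood at 0.26, 0.75, 0.91 and 0.27 and the mitosis sums at 0.69, 1.10, 0.20 and 2.29 in the same order. For principal-like cells the relative values were −0.60 for replication and 0.78 for mitosis, and for endothelium-like cells 0.53 and 0.42. The part of mitochondrial content in these ratios beyond this scaling was not tested.

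Other genes of the cycle were read from lists of names that do not overlap the members. The same minimum of 20 UMIs over both libraries applied. Scarce genes could thus enter through the library where they were high, and the counts and medians are a description. In proximal tubule-like cells, 15 of 34 measured replication genes outside the member list were at least 2-fold higher and 1 lower (median log2 ratio 0.97), and 21 of 40 mitosis genes were higher and 0 lower (1.06), beside 15.8% and 4.21% of all genes and the all-gene median of 0.31. Prc1, which crosslinks the central spindle, was at 4.43 and 20.1 CPM there, and Chaf1b, which deposits histones behind the fork, at 0.886 and 5.10 CPM. In thick ascending limb-like cells 20 of 29 replication genes (1.39) and 15 of 25 mitosis genes (1.39) were higher and 0 lower, beside 23.6% and 4.69% of all genes. In principal-like cells 1 of 33 replication genes was higher and 7 lower (−0.57) and 11 of 27 mitosis genes were higher and 2 lower (0.54), beside 9.30% and 6.04% of all genes; no other clustering was run for these lists. In intercalated-like cells the counts were 9 of 27 and 0 (0.76) for replication and 13 of 24 and 1 (1.09) for mitosis (16.3% and 4.50% of all genes), in distal convoluted tubule-like cells 8 of 20 and 0 (0.98) and 6 of 12 and 0 (0.94; 22.0% and 3.72%), and in endothelium-like cells none of 17 (0.33) or of 5 (0.27) passed 2-fold (4.96% and 3.61%). Regulators of G1 outside the member list were at least 2-fold higher for 3 of 14 genes in proximal tubule-like (median 0.27), 7 of 14 in thick ascending limb-like (1.22) and 2 of 14 in principal-like cells (−0.13, with 2 lower), beside 15.8%, 23.6% and 9.30% of all genes. Of the listed cycle inhibitors, 5 of 11 were higher in proximal tubule-like (0.85), 7 of 12 in thick ascending limb-like (1.51) and 3 of 11 in principal-like cells (0.35), with 0 lower, against the same shares of all genes. Cdkn1a, the p21 inhibitor of cyclin kinases, was at 5.86 and 102 CPM in proximal tubule-like, 2.5 and 185 CPM in thick ascending limb-like and 6.41 and 99.3 CPM in principal-like cells.

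**Figure D3:**
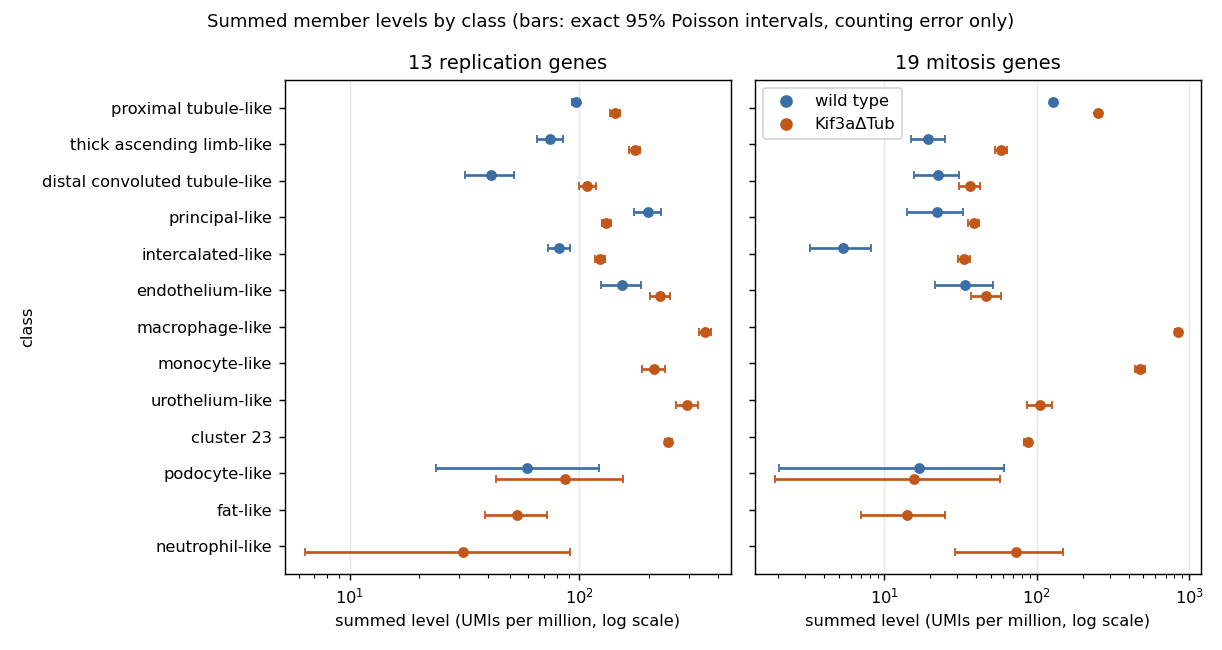
Summed CPM of the replication genes and of the mitosis genes in each class (log axis), with exact Poisson 95% intervals, for both libraries; sums of 0 UMIs are not drawn. Principal-like cells are the class in which the wild type point lies right of the Kif3aΔTub point for replication.

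Sums do not tell many cells with little from few cells with much, so cells were counted. A cell with UMIs of at least 3 mitosis genes is called a mitosis-gene cell here, a range rather than a type. There were 97 in wild type (2.25%, 1.83 to 2.73) and 352 in Kif3aΔTub (4.98%, 4.49 to 5.51). After each cell was thinned to 2000 UMIs, with 661 and 1152 shallower cells left out, the shares were 1.15% and 2.47%. Near the limit, 57 and 221 cells had 2 mitosis genes and 19 and 80 had exactly 3, while 4 and 28 cells had all 19. Cells with at least 3 replication genes numbered 272 (6.30%, 5.59 to 7.07) and 1149 (16.3%, 15.4 to 17.1), and 0.739% and 1.81% after thinning. Here 431 and 926 cells had 2 genes and 151 and 420 had exactly 3. Mitosis-gene cells were deeper than the rest, at median 15955 against 7600.5 UMIs in wild type and 20563 against 7474.5 in Kif3aΔTub. Scrublet had removed 54 and 170 barcodes as doublets, of which 2 and 18 held at least 3 mitosis genes.

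**Figure D4:**
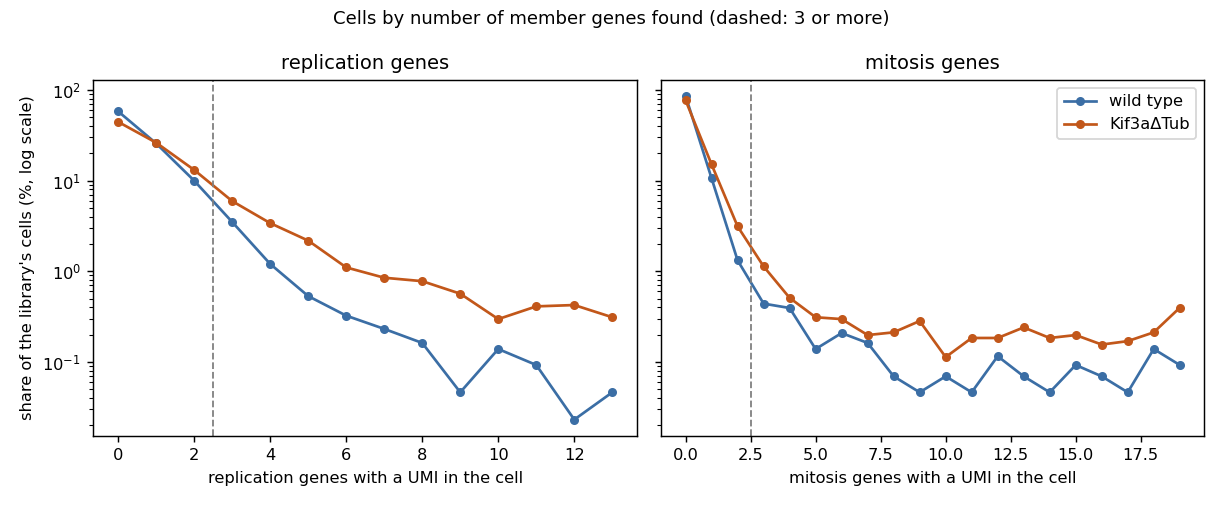
Share of each library's cells (percent, log axis) by the number of different mitosis genes or replication genes with a UMI. Most cells have no mitosis gene, and a long tail reaches all 19 mitosis genes in 4 wild type and 28 Kif3aΔTub cells.

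The 2 libraries held their mitosis-gene cells in different classes. In wild type, 86 of 97 (88.7%) were proximal tubule-like, 5 were in cluster 20, 3 were thick ascending limb-like, 2 distal convoluted tubule-like and 1 principal-like. In Kif3aΔTub, 82 of 352 (23.3%) were in cluster 23, 68 (19.3%) were macrophage-like, 53 (15.1%) proximal tubule-like, 51 (14.5%) in cluster 20 and 27 (7.67%) principal-like. The proximal tubule-like share of cells was nevertheless higher in Kif3aΔTub, at 4.91% (3.70 to 6.37) against 2.84% (2.28 to 3.50), and at 3.36% against 1.44% after thinning. In thick ascending limb-like cells the shares were 0.882% (3 cells) and 3.38% (21 cells). Among intercalated-like cells none of 308 wild type cells qualified, which allows up to 0.974%, and 13 of 740 (1.76%) did in Kif3aΔTub. Endothelium-like cells gave 0 of 155 (up to 1.94%) and 4 of 474 (0.844%). Within wild type, cluster 15 gathered the proximal tubule signal: 27 of its 40 cells were mitosis-gene cells and held 2788 of the 4008 mitosis UMIs of the class.

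Cluster 20 consisted of mitosis-gene cells only, 5 from wild type and 51 from Kif3aΔTub, although members and listed cycle genes had been left out of the clustering. Its median depth was 8900 and 27267 UMIs and its mitosis genes summed to 9249 and 3740.3 CPM. When the 1248 genes correlated with the members were left out as well, its wild type cells joined principal-like (3) and thick ascending limb-like (2) cells, and its Kif3aΔTub cells an unnamed cluster (26), principal-like (17) and other classes. Principal-like mitosis-gene cells then numbered 3 (2.10%) in wild type and 60 (5.85%) in Kif3aΔTub. The class given to the cells of cluster 20 therefore depended on the genes used.

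Markers of the class are given for mitosis-gene cells as a description, since the classes were named from them. The 86 proximal tubule-like ones of wild type had UMIs of 15 of 15 proximal tubule markers, which summed to 24175 CPM against 35575 CPM in the other cells of the class, and 0.667 CPM of macrophage markers. Under the clustering without correlated genes, the 54 proximal tubule-like ones of Kif3aΔTub had proximal tubule markers at 7176 CPM against 13031 CPM in the rest of the class. The 67 macrophage-like ones had macrophage markers at 15306 CPM against 22639 CPM in the rest of the class. Their proximal tubule markers were lower too (34.2 against 77 CPM), but their principal markers were higher (469.6 against 222 CPM). Principal markers were also higher in the 54 proximal tubule-like ones (253 against 170.2 CPM), whose macrophage markers were lower. The 60 principal-like ones of Kif3aΔTub had higher macrophage markers (101 against 40.8 CPM) and lower proximal tubule markers (22.1 against 32.1 CPM). The source of markers of other classes was not tested. Markers of the cells' own class were lower in the mitosis-gene cells than in the rest of each of these classes.

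Several classes were found almost only in Kif3aΔTub and had no wild type counterpart to compare. Macrophage-like cells (645) had mitosis genes at 842 CPM (810.2 to 875) and replication genes at 351 CPM, and 10.5% (8.28 to 13.2) were mitosis-gene cells. Top2a was at 109, Birc5 at 98.9, Mki67 at 97.0, Ube2c at 80.7 and Cdk1 at 44.0 CPM there. Monocyte-like cells (255) had 474 CPM of mitosis genes, 91.9% of it in 10 cells. Cluster 23, 913 Kif3aΔTub cells led by Sprr2f, Igfbp2 and Lcn2 and left unnamed, had replication genes at 244 CPM and mitosis genes at 87.1 CPM. In that cluster Cdk1 had UMIs in 17.7% of cells (15.4 CPM), Mki67 in 7.34% (8.44 CPM) and Ccnd1 in 80.5% (538 CPM). As a measure of free RNA, neutrophil-like cells (84, median 1004.5 UMIs) had 7 mitosis UMIs (72.5 CPM) and 0 mitosis-gene cells (up to 3.57%), podocyte-like cells of Kif3aΔTub (30, median 3734 UMIs) 15.7 CPM and fat-like cells (37, median 21000 UMIs) 14.1 CPM (7.01 to 25.1). These 3 values all come from the Kif3aΔTub library, rest on few UMIs and spread widely. In wild type, podocyte-like cells had 1 UMI each of Cenpf and Tpx2 and none of the other mitosis genes. The mitosis sums of several compared classes lay among the 3 values: 19.4 CPM for wild type thick ascending limb-like cells, 22.3 and 36.2 for the distal convoluted tubule-like, 22.0 and 38.7 for the principal-like, 33.9 and 46.7 for the endothelium-like and 33.2 for the Kif3aΔTub intercalated-like class. The part of free RNA in those sums, and in the intercalated-like ratio of 2.61, was not tested.

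For each member, the share of its UMIs that lay in cells with at least 3 other mitosis genes was computed. Most mitosis genes had over 80% of their UMIs in such cells in both libraries, among them Mki67 (90.5% in wild type and 90.7% in Kif3aΔTub), Plk1 (98.8% and 95.7%), Ube2c (96.0% and 93.0%), Cenpf (95.3% and 94.3%) and Ccna2 (92.4% and 96.0%). The cells were chosen by mitosis genes, so these shares cannot be compared between mitosis and replication genes. Among replication genes they ran from Mcm2 (11% and 27.6%) and Mcm6 (12.5% and 34.3%) to Rrm2 (68.6% and 82.7%). Ccnd1 (1.69% and 17.3%) had the lowest share in wild type. Cdk1 was the mitosis gene with the lowest share in Kif3aΔTub (74.6% and 68.2%). Nusap1 differed most between libraries: 47.1% of its 225 UMIs lay in such cells in wild type and 90.7% of its 602 UMIs in Kif3aΔTub, and of the cells with Nusap1 20.0% (13.7 to 27.6) and 69.8% (62.5 to 76.4) had 3 other mitosis genes. Cenpa (63.6% and 79.4%) and Cenpe (68.4% and 83.5%) moved the same way.

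**Figure D5:**
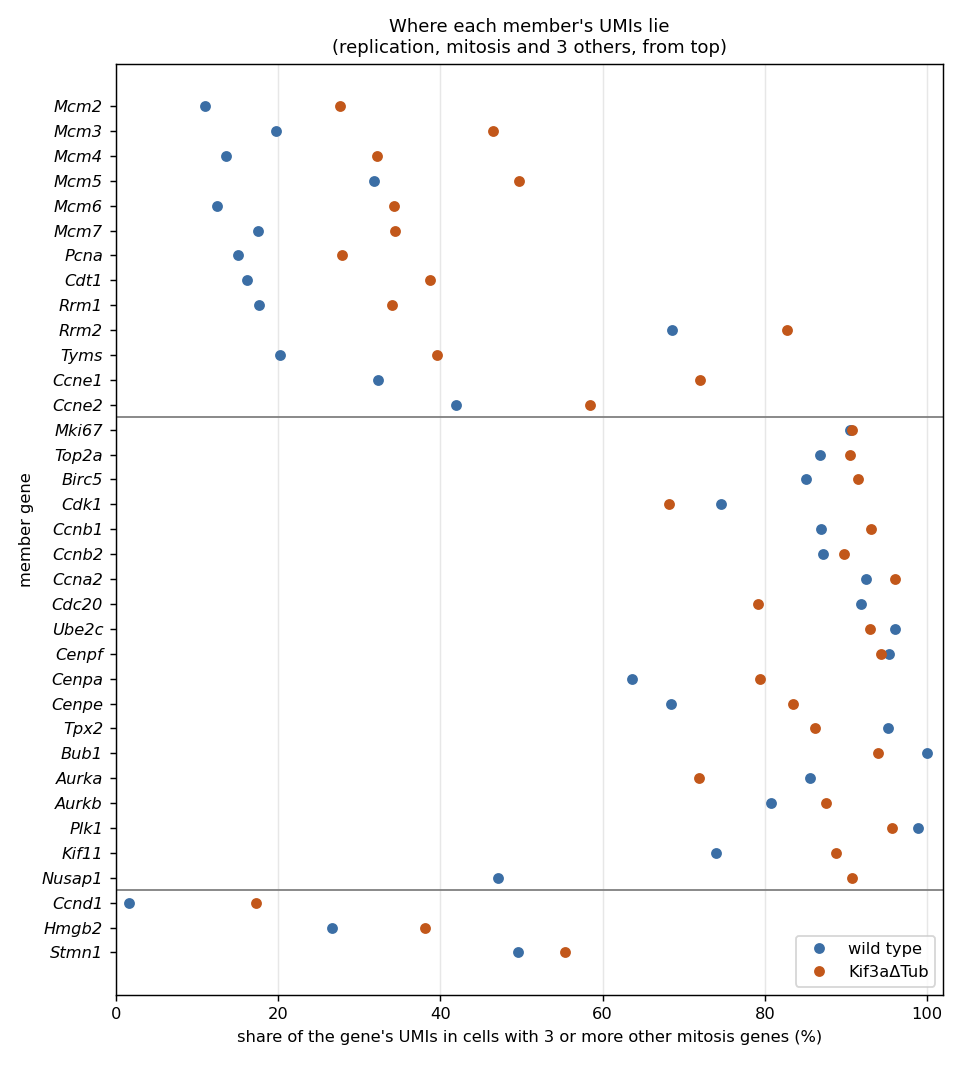
Share of each member's UMIs found in cells with at least 3 other mitosis genes, in percent, for both libraries. Mitosis genes lie at 63.6% or more except Nusap1 in wild type at 47.1%, and replication genes at 58.4% or less except Rrm2 and, in Kif3aΔTub, Ccne1. The cells were chosen by mitosis genes, so the shares of mitosis and replication genes cannot be compared.

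Replication and mitosis genes overlapped in the same cells. At least 3 replication genes were found in 55.7% of wild type and 76.1% of Kif3aΔTub mitosis-gene cells, against 5.17% and 13.1% of the other cells. Thinned to 2000 UMIs, 53.2% and 57.2% of mitosis-gene cells had a replication UMI, against 13.1% and 20.4% of cells without mitosis genes. Mitosis-gene cells held 21.3% and 39.4% of replication UMIs, so most replication transcripts lay outside them. They held 86.5% and 89.8% of mitosis UMIs. The cells were chosen by their mitosis genes and not by replication genes, so the mitosis and replication shares cannot be compared.

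The make-up of the mitosis signal differed between the libraries. Of the mitosis UMIs in mitosis-gene cells, Top2a gave 5.55% in wild type and 11.4% in Kif3aΔTub, Ube2c 5.84% and 8.99% and Cdk1 3.52% and 6.22%. Ccnb2 gave 6.94% and 4.04%, Cdc20 6.60% and 3.23%, Cenpf 14.6% and 10.7% and Mki67 14.8% and 11.7%. Cdk1 was found in 36.1% of the wild type cells and 64.8% of the Kif3aΔTub cells, whose median depths were 15955 and 20563 UMIs. For a narrower comparison, the proximal tubule-like cells with at least 10 mitosis genes were taken, 29 in wild type (19, 60 and 490 mitosis UMIs as lowest, median and highest) and 30 in Kif3aΔTub (20, 73.5 and 239). The ranges overlapped, with the highest wild type cells above the Kif3aΔTub maximum. Their median depths were 16136 and 20317.5 UMIs. Top2a was found in 58.6% (38.9 to 76.5) and 83.3% (65.3 to 94.4) of them, with intervals that overlapped, and gave 5.84% and 7.95% of their mitosis UMIs. Ccnb2 gave 5.77% and 3.69% and Cdc20 7.74% and 4.85%, while Cenpf (13% and 13.4%), Mki67 (12.5% and 13.3%) and Cdk1 (4.07% and 4.37%) were nearly level. Macrophage-like cells of the same kind (33, Kif3aΔTub) had Top2a at 13.3%, Cenpf at 5.00% and Ccnb2 at 1.89%, so the make-up also differed between classes of 1 library.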

How the data were processed

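The authors deposited filtered matrices of UMI counts, 1 per library, made with Cell Ranger 3.1.0 per the file headers. Cell Ranger 3.0.2, Seurat 3.1.1 and mm10 stand in the submitters' processing notes. The disagreement was not resolved, and no upstream step was rerun. Barcodes with at least 500 UMIs, 200 genes and under 50% mitochondrial UMIs were kept (4371 of 6938 wild type, 7236 of 7950 Kif3aΔTub), and Scrublet doublets (1.24% and 2.35%) were removed. Counts were normalised to 10000 per cell, and 2000 variable genes per library, 30 components, 15 neighbours and Leiden at resolution 1 gave 32 clusters (scanpy 1.11.5). Clusters took a name from markers of 22 cell types by a rule written after the clusters were seen, and 5 stayed unnamed. Classes with at least 100 cells in each library were compared, on summed counts with 0.5 added for log2 ratios. Intervals were exact Poisson, conditional or Clopper-Pearson ones (scipy 1.17.1). No test was possible with 1 library per genotype. The ratios and their intervals were tested on simulated Poisson counts, the model that the intervals assume, and the thinning on made-up counts. UMIs gathered in few cells were not simulated, so coverage of the intervals in such sums was not tested. Members, lists and limits were chosen with earlier results of these data known. All members are named; of other lists, genes among the 4 with the largest absolute log2 ratio are named. Clustering, filters, totals, doublets and thinning were varied.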

Additional observations from a re-analysis of the deposited data

Results flagged for a closer look

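Replication genes were lower in Kif3aΔTub in principal-like cells (log2 ratio −0.59, −0.79 to −0.38) and higher in the other 5 classes compared, at 0.57 in proximal tubule-like, 1.23 in thick ascending limb-like, 1.39 in distal convoluted tubule-like, 0.59 in intercalated-like and 0.55 in endothelium-like cells. The opposite direction drew attention to it, and the difference between classes was not tested. The principal-like class had 153 wild type and 1239 Kif3aΔTub cells from mostly different clusters, and the ratio was −0.02, −0.07 and −0.12 at a coarser clustering, without correlated genes and with at least 1000 UMIs.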

How the results depend on the processing

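No paired analysis was possible because each genotype had 1 library. Of 90 member ratios whose interval lay off 0, 72 kept their direction under every alternative run (22 of 30 for the proximal tubule-like class, 11 of 18 for the thick ascending limb-like, 10 of 11 in distal convoluted tubule-like, 5 of 6 in principal-like, 19 of 20 in intercalated-like and 5 of 5 in endothelium-like cells). The cause of each move was not tested. Changed filters, kept doublets and other clusterings grouped the cells anew, so the classes then held other cells. In wild type, mitosis genes of thick ascending limb-like cells summed to 390.2 CPM under the 25% limit, against 19.4 CPM in the main clustering. Those of wild type principal-like cells summed to 451 CPM at resolution 0.5 and 311 CPM without correlated genes, against 22.0 CPM. Values are log2 ratios of class sums unless said otherwise.

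Totals without mitochondrial transcripts gave replication 0.38 (proximal tubule-like), 0.77 (thick ascending limb-like), 0.98 (distal convoluted tubule-like) and 0.31 (intercalated-like), mitosis 0.81, 1.13 and 0.27 in the first 3 (the last with an interval that then included 0), and 6 members at least 2-fold higher in proximal tubule-like and 1 lower in intercalated-like cells. Under 25% mitochondrial UMIs, replication was 0.27 for proximal tubule-like and −0.14 for thick ascending limb-like cells, mitosis was 0.44, −1.59 and −0.17 in proximal tubule-like, thick ascending limb-like and distal convoluted tubule-like cells, and 17.9% of Kif3aΔTub cells had at least 3 replication genes; the wild type class of the thick ascending limb then held 68 cells. With at least 1000 UMIs, mitosis was 0.66, 1.97, 1.68 and 3.48 in thick ascending limb-like, distal convoluted tubule-like, principal-like and intercalated-like cells, replication in principal-like cells −0.12, and the Kif3aΔTub replication share 17.6%. With doublets kept, proximal tubule-like cells gave 0.67 and 1.76 and intercalated-like mitosis 1.34. Clustering with cell cycle genes gave 0.34 and 0.39 in proximal tubule-like cells and mitosis 1.60 in distal convoluted tubule-like cells.

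Resolution 0.5 gave mitosis 1.12 in proximal tubule-like and −0.87 in principal-like cells and replication −0.02 in the latter; resolution 2 gave 0.85 and 1.88 in proximal tubule-like cells and mitosis 1.35 in distal convoluted tubule-like and −1.0 in endothelium-like cells. Leaving correlated genes out of the clustering, chosen after seeing the data, gave mitosis 0.78, 2.44, −1.09 and 3.52 in thick ascending limb-like, distal convoluted tubule-like, principal-like and intercalated-like cells and replication −0.07 in principal-like cells. With at least 2 genes, 16.3% of wild type and 29.4% of Kif3aΔTub cells counted for replication and 3.57% and 8.11% for mitosis; with at least 5, 1.60%, 6.92%, 1.41% and 3.34%; after thinning, 0.739%, 1.81%, 1.15% and 2.47%. Asking for 100 UMIs left 6 members at least 2-fold higher in thick ascending limb-like, 2 in distal convoluted tubule-like, 0 (and 1 lower) in principal-like, 2 in intercalated-like and 1 (and 0 lower) in endothelium-like cells; asking for 1 UMI gave 14 higher and 2 lower in distal convoluted tubule-like, 2 lower in intercalated-like and 9 higher and 4 lower in endothelium-like cells.

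Single members turned round as follows. In proximal tubule-like cells, clustering with cell cycle genes gave Rrm2 −0.03, Cenpf −0.91, Cenpe −1.22, Aurkb −1.15, Kif11 −0.58 and Nusap1 −0.06, and the 25% limit gave Ccnb2 −0.36 and Cdc20 −0.41. In thick ascending limb-like cells the 25% limit gave Tyms −0.75, Top2a −2.90, Cdk1 −1.13, Ube2c −1.49, Cenpf −0.51, Cenpa −0.93 and Hmgb2 −0.06, and Top2a was −0.32 with at least 1000 UMIs and −0.11 without correlated genes. Hmgb2 was −0.03 in distal convoluted tubule-like cells under the 25% limit, Mcm3 0.06 in principal-like cells at resolution 0.5, and Ccnd1 −0.01 in intercalated-like cells with cell cycle genes and at resolution 2. At this depth, levels of 1 to 3 UMIs in the smaller wild type classes limit what can be compared.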

Other observations

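Barcodes that passed the limits on UMIs and genes but had 50% or more mitochondrial UMIs were left out of every comparison, 1361 in wild type and 372 in Kif3aΔTub. Among them 18 (1.32%, 0.786 to 2.08) and 7 (1.88%, 0.760 to 3.84) had UMIs of at least 3 mitosis genes. Their mitosis genes summed to 33.3 and 41.1 CPM, or 98.7 and 131 CPM with mitochondrial transcripts left out of the totals, and their replication genes to 34.1 and 46.8 CPM, or 101 and 149.5 CPM.

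Genes that act before replication, outside the member list, were among those farthest apart. Myc, which drives growth and entry into the cycle, was at 1.79 and 17.2 CPM over all cells, and Cdk6, a partner of cyclin D, at 10.9 and 40.7 CPM. The inhibitor Cdkn2b was at 0.400 and 17.5 CPM, and Cdkn2a had 0 UMIs in wild type and 214 in Kif3aΔTub, at least 38.3-fold higher. In endothelium-like cells the inhibitor Cdkn1c was lower in Kif3aΔTub, at 103 and 48.4 CPM (log2 ratio −1.10, −1.57 to −0.61).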
